A study of Homo sapiens with 2 samples.

Results

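Cyclins are the regulatory subunits that switch on cyclin-dependent kinases (CDKs), and several of them are known to come and go with each cell cycle, their messenger RNAs included. The 10 cyclin genes described here were CCND1, CCND2, CCND3, CCNE1, CCNE2, CCNA2, CCNB1, CCNB2, CCNG1 and CCNI, picked by gene symbol through the Ensembl identifier that each peak carries. They are 10 of 20048 gene entries with a peak, and of 13033 protein-coding ones. All 10 had peaks in both libraries. D-type cyclins drive CDK4 and CDK6 in G1, E-type cyclins drive CDK2 at entry into S phase, CCNA2 acts in S phase and G2, and B-type cyclins drive CDK1 in mitosis. CCNG1 is a p53 target and CCNI an atypical cyclin.

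The data were lists of RNA peaks from 2 small-RNA libraries of a single group labelled TRACER, a word whose meaning the labels do not give. Both libraries held cytoplasmic RNA of the human embryonic kidney line HEK293T, grown in DMEM with 10% FBS and kept in doxycycline at 3 ug/mL for 24 hours. The labels name no introduced gene and give no untreated or control library. They leave it unsaid if the replicates grew as independent cultures, so errors, given as the SD over the libraries (n = 2), may be technical only. The series set out to find parts of RNAs that CCR4-NOT associates with, this being the complex that shortens the poly(A) tails of messenger RNAs. Pumilio proteins, which bind UGUANAUA in 3′ UTRs, and microRNAs, which pair with 3′ UTRs through their seed, are known ways by which this complex reaches a transcript. Without a control library, a peak shows where reads piled up, and what part the complex had in it was not tested.

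Replicate 1 held 104 cyclin peaks out of 100792 peaks in all, and replicate 2 held 106 out of 109413. Summed over peaks, the cyclin genes had 1077 reads in replicate 1 and 1171 in replicate 2, which was 0.0663% and 0.0687% of all peak reads. The median cyclin peak held 8 reads in replicate 1 and 9 in replicate 2, against 6 in each library over all peaks. Cyclin peaks were 28.5 nt and 28 nt wide at the median, against 27 nt and 28 nt over all peaks. Reads were sums over peaks, not sequencing depth, and each peak had been called in its own library. The deposited p-value of a peak is the authors' own and was used only to describe or filter peaks.

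Signal varied widely among the cyclin genes. To compare genes, peak reads were divided by kb of merged exons and by the peak reads of the library, in units of 1000000, and this quantity is called the level. CCNB1 stood first, with levels of 44.0 and 54.6 in replicates 1 and 2 (49.3 ± 7.46). CCNG1 followed with levels of 37.4 and 36.4 (36.9 ± 0.705). Both libraries placed CCNB1 above CCNG1 and CCNG1 above CCNI, and by mean level CCNB1 and CCNG1 ranked 623 and 879 of 13033 coding genes with a peak. CCNI had levels of 28.8 and 20.7 (24.7 ± 5.72), CCNA2 of 19.1 and 23.7 (21.4 ± 3.22) and CCND2 of 17.5 and 19.8 (18.6 ± 1.68). The libraries ordered CCNI and CCNA2 in opposite ways. Both placed CCNA2 above CCND2, although the values of the libraries overlapped. CCNB2 had levels of 12.5 and 12.4 (12.4 ± 0.120), CCNE1 of 11.1 and 11.3 (11.2 ± 0.119) and CCND1 of 11.8 and 8.86 (10.4 ± 2.11). The libraries ordered CCNE1 and CCND1 in opposite ways too. CCNE2, with levels of 2.24 and 8.54 (5.39 ± 4.45), and CCND3, with 3.08 and 0.910 (1.99 ± 1.53), closed the order, again in opposite ways in the libraries. With the length of the representative transcript in place of merged exons, CCNB2 stood at 22.4, above CCNA2 at 21.4 and CCND2 at 20.6.

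The median level over the cyclin genes was 15 in replicate 1 and 16.1 in replicate 2, against 3.77 and 4.48 over coding genes with a peak in that library. CCND3 was the single member below the coding-gene median in both libraries, and CCNE2 was below it in replicate 1. Level follows RNA abundance as well as any association, and abundance was not measured here, so their parts cannot be told apart.

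**Figure D1:**
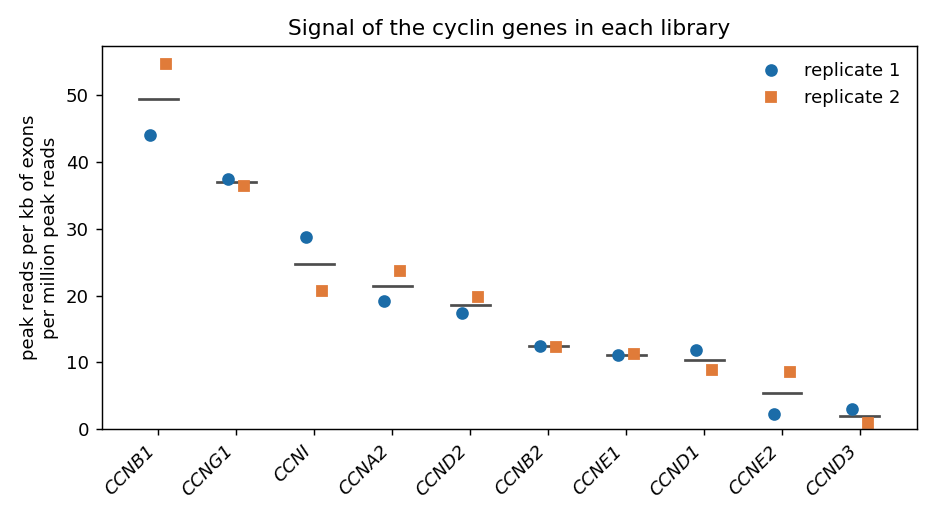
Level of each cyclin gene, in peak reads per kb of exons, scaled to the peak reads of the library, in replicate 1 (circles) and replicate 2 (squares), with the mean as a line. CCNB1, at 49.3, and CCNG1, at 36.9, stand above the others, and CCND3, at 1.99, is lowest.

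The median cyclin gene had a larger part of its peak reads in the 3′ UTR than the median coding gene in both libraries. Over members with at least 10 reads in a library, the median share of reads in the 3′ UTR was 43.9% in replicate 1 (10 genes) and 32.6% in replicate 2 (9 genes), a mean of 38.2% ± 8.02. Over all coding genes it was 21.6% (9284 genes) and 20.8% (9749 genes), a mean of 21.2% ± 0.557. The median share in coding sequence (CDS) was 39.2% and 43.0% for the cyclin genes, against 51.5% and 55.6%, and that in 5′ UTRs was 4.68% and 10.4%, against 0% and 0%. The 3′ UTR also made up more of the transcript, with a median of 45.5% of the representative transcript in the cyclin genes, against 38.3% over 11193 coding genes with a peak in each library. Per kb, the ratio of 3′ UTR to CDS reads had a median of 0.944 in replicate 1 (4 of 10 cyclin genes above 1) and 0.836 in replicate 2 (3 of 9), against 0.305 (1997 of 8153 coding genes) and 0.259 (2050 of 8777). A gene without CDS reads has no such ratio and was left out, so these coding genes are fewer than those with a share. All of these are descriptions of a list chosen by name, and no test of the difference was made.

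The share in the 3′ UTR was higher in replicate 1 for 7 of the 9 members with a share in both libraries and higher in replicate 2 for CCNB2 and CCND1. In 5 of the 9 the exact 95% binomial intervals of the libraries did not overlap. Those intervals cover counting error only and treat reads as independent, while reads entered the lists in whole called peaks. The same counts were not made over all coding genes, so how usual such differences are was not tested.

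**Figure D2:**
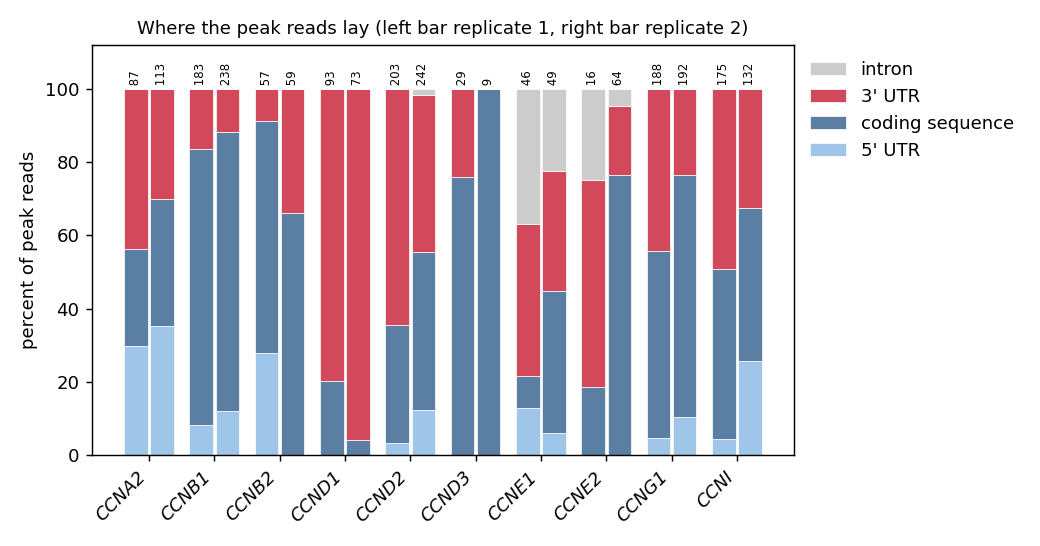
Percent of the peak reads of each cyclin gene in the 5′ UTR, CDS, 3′ UTR and introns, with replicate 1 as the left bar and replicate 2 as the right bar of each pair and the number of reads above. CCND1 has the largest 3′ UTR part, 79.6% and 95.9%, and CCNB1 keeps most of its reads in the CDS.

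Peaks of both libraries that touched were merged into 141 regions, of which 65 held a peak of each library and are called repeated. Of these, 27 lay in 3′ UTRs, 31 in CDS, 6 in 5′ UTRs and 1 in an intron. A repeated 3′ UTR region was found in 9 of the 10 cyclin genes, all but CCND3, against 50.4% of the 11193 coding genes. A repeated CDS region was likewise found in 9 of 10, all but CCND1, against 65.6%, and a repeated 5′ UTR region in 6 of 10, against 24.6%. The cyclin genes also had more peak reads than the typical gene, with a median of 183 over both libraries against 83, and a count of regions can follow reads. What part reads had in these counts was not tested. The median number of repeated regions was 5.5 per cyclin gene, against 3.

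Of the 104 cyclin peaks in replicate 1, 67 overlapped a peak of replicate 2, which was 64.4% (exact 95% interval 54.4 to 73.6), against 60.0% over all peaks. In the other direction 67 of 106 overlapped, which was 63.2% (53.3 to 72.4), against 55.5%. The share over all peaks lay within the cyclin genes' interval in both directions. Among cyclin peaks of 3 to 4 reads, 31.6% and 33.3% repeated, against 33.5% and 27.5% of all such peaks. Of cyclin peaks with 5 to 9 reads, 63.6% and 50% repeated, against 64.0% and 55.6%. For 10 to 19 reads it was 77.4% and 76.3%, against 87.7% and 82.2%. The cyclin share from 5 to 19 reads was the lower one in both libraries, though nearly equal for 5 to 9 reads in replicate 1. There were 44 and 40 cyclin peaks of 5 to 9 reads and 31 and 38 of 10 to 19, so these shares rest on few peaks. Whether they differ from those of all peaks was not tested. Of cyclin peaks with at least 20 reads, 9 of 10 and 13 of 13 repeated, against 97.3% and 96.2% of all such peaks. Peaks of few reads thus repeated least, in the cyclin genes and over all genes.

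**Figure D3:**
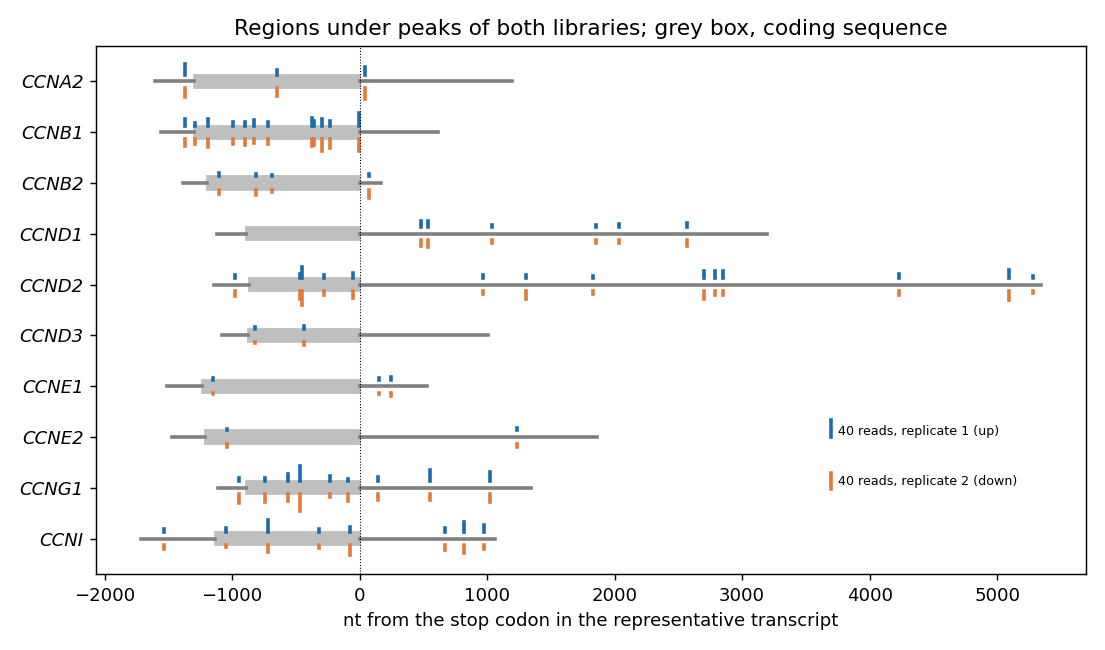
Positions of the repeated regions along the representative transcript of each cyclin gene, in nt from the stop codon, with the CDS as a grey box and tick heights proportional to the reads of the strongest peak in replicate 1 (up) and replicate 2 (down). The 2 regions of CCNE1 in introns of this transcript are not drawn. The 6 regions of CCND1 all lie in the 3′ UTR, while most of the 12 of CCNB1 lie inside the CDS.

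CCND1 (ENSG00000110092, chr11:69641087-69654474, plus strand, GRCh38), the D-type cyclin often amplified in tumours, had 93 and 73 peak reads in replicates 1 and 2. Of these, 74 and 70 lay in the 3′ UTR, a share of 79.6% and 95.9% (87.7% ± 11.5), and none lay in the 5′ UTR in either library. All 6 of its repeated regions were in the 3′ UTR, which is 3192 nt long and makes up 74.1% of the transcript. The strongest pair lay close together at chr11:69651744-69651780, with 15 and 14 reads, and chr11:69651801-69651843, with 14 and 16 reads, 483 and 536 nt after the stop codon at their summits. Another, at chr11:69653823-69653932, held 10 and 13 reads. CDS reads numbered 19 in replicate 1 and 3 in replicate 2, and no CDS peak repeated. Per kb of the representative transcript, 3′ UTR reads stood at 0.898 times CDS reads in replicate 1 and at 6.49 times in replicate 2. That ratio takes a replicate 1 peak of 3 reads, at chr11:69648126-69648142, as CDS, while the counts above take it as 3′ UTR of another transcript. The side of 1 on which replicate 1 falls rests on that choice, so no direction is read from it.

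CCND2 (ENSG00000118971, chr12:4273772-4305350, plus strand) had the most repeated regions of the 10 genes, 14, of which 9 were in its 3′ UTR of 5341 nt, 4 in the CDS and 1 in the 5′ UTR. It had 203 and 242 peak reads, of which 131 and 104 lay in the 3′ UTR (64.5% and 43.0%, or 53.8% ± 15.2) and 65 and 104 in the CDS. In the 3′ UTR, 3 regions sat in a row between 2705 and 2850 nt after the stop codon, with 17 and 18, 16 and 8, and 16 and 8 reads. The strongest of the 3′ UTR, chr12:4305076-4305164, held 33 and 20 reads, in 2 peaks in replicate 1, and lay 246 nt from the transcript's end. Per kb the CDS was denser in both libraries, and the 3′ UTR had 0.328 and 0.163 times its reads. The strongest CDS region, at chr12:4278758-4278818, held 27 and 54 reads summed over its peaks, 2 of them in replicate 2, and a second, at chr12:4276204-4276221, held 10 and 19. Their summits lay on either side of the junction of exons 2 and 3, each 5 nt from it, so in the spliced RNA they are neighbours. Whether the same spliced reads made both was not tested.

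CCND3 (ENSG00000112576, chr6:41934933-42050357, minus strand) had the least signal by its mean level, with 29 reads in 7 peaks in replicate 1 and 9 reads in 2 peaks in replicate 2. Its repeated regions were a pair in the CDS, one of 11 and 6 reads at chr6:41937351-41937395, with 2 peaks in replicate 1, and one of 4 and 3 reads at chr6:41941583-41941606. In replicate 1, 7 of 29 reads lay in the 3′ UTR (24.1%, exact 95% interval 10.3 to 43.5), and in replicate 2 the listed peaks held none there. At this depth a 3′ UTR share could not be given for replicate 2. Whether its regions differed from those of CCND1 and CCND2 was not tested.

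CCNE1 (ENSG00000105173, chr19:29811898-29824308, plus strand) had 46 and 49 reads, with 19 and 16 in the 3′ UTR (41.3% and 32.7%, or 37.0% ± 6.12). Its 3′ UTR is short, 531 nt, and per kb it had 11 times the reads of the CDS in replicate 1 and 1.96 times in replicate 2. The CDS held 4 and 19 reads, so the ratio moved with few reads. A pair of repeated regions lay in the 3′ UTR, one of 7 and 8 reads at chr19:29824015-29824040 and one of 3 and 3 reads nearer the stop codon. The strongest region of the gene was in its first intron, at chr19:29812349-29812382, with 17 and 11 reads, 210 nt after exon 1. It was the one repeated intronic region among the cyclin genes. A further region of 6 and 3 reads, at chr19:29812648-29812674, fell in intron 2 of the representative transcript and in the 5′ UTR of another one.

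CCNE2 (ENSG00000175305, chr8:94879770-94896678, minus strand), the second E-type cyclin, differed most between the libraries, with 16 reads in 4 peaks in replicate 1 and 64 reads in 11 peaks in replicate 2. Its 3′ UTR reads numbered 9 and 12, and its CDS reads 3 and 49, so the extra reads of replicate 2 lay mainly in the CDS. The 3′ UTR share was 56.3% and 18.8% (37.5% ± 26.5). One 3′ UTR region, of 6 and 9 reads, and one CDS region, of 3 and 9 reads, repeated. The exact 95% intervals of these shares were 29.9 to 80.2 and 10.1 to 30.5.

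CCNA2 (ENSG00000145386, chr4:121816444-121823933, minus strand) had 87 and 113 reads. They were spread over the 3′ UTR (38 and 34), the CDS (23 and 39) and the 5′ UTR (26 and 40), and it had the most 5′ UTR reads of the 10 genes in both libraries. Each part held 1 repeated region. The 5′ UTR region at chr4:121823670-121823726 held 26 and 22 reads, and the 3′ UTR region at chr4:121817556-121817642 held 20 and 26, with its summit 45 nt after the stop codon. The CDS region at chr4:121820667-121820709 held 11 and 18 reads around codon 216. Its 3′ UTR share was 43.7% and 30.1% (36.9% ± 9.61).

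CCNB1 (ENSG00000134057, chr5:69167010-69178245, plus strand) had 183 and 238 reads, most of them in the CDS. There it had 138 and 181 reads and 10 of its 12 repeated regions. Peaks of both libraries covered 16.2% of its coding bases, as in CCNG1, against 0% in CCND1. Its share in the 3′ UTR was 16.4% and 11.8% (14.1% ± 3.27), by its mean the lowest of the members with a share in both libraries, although CCNB2 was lower in replicate 1. All of those reads, 30 and 28, came from the strongest region of the gene, at chr5:69177596-69177655, which spans the stop codon. Its summit falls in the 3′ UTR of another isoform and at codon 432 of the representative transcript, where it is coding. Counted by the representative transcript alone, or with CDS given priority, CCNB1 had no repeated 3′ UTR region and 8 rather than 9 members had one.

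CCNB2 (ENSG00000157456, chr15:59105078-59125045, plus strand) had 57 and 59 reads, nearly the same number, but in different places. Its 5′ UTR reads numbered 16 and 0, and its 3′ UTR reads 5 and 20, a share of 8.77% and 33.9% (21.3% ± 17.8). The 3′ UTR, of 168 nt, is the shortest of the set, and 19.6% of its bases were under peaks of both libraries, the most of the 10. That cover was a single region, chr15:59124923-59124965. Peaks with the same 5 and 20 reads, at the same place in replicate 1 and nearly so in replicate 2, were also listed under AC092757.2, a gene entry that overlaps it, and the reads cannot be assigned to one of the entries. No other cyclin peak was listed under a second gene.

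CCNG1 (ENSG00000113328, chr5:163437569-163446151, plus strand) held the cyclin peaks with the most reads in each library, 37 and 39, at chr5:163441203-163441265 in the CDS around codon 141. The gene had 188 and 192 reads in all. Its CDS had 96 and 127 reads in 5 repeated regions, and its 3′ UTR 83 and 45 reads in 3 regions, of 28 and 13, 21 and 18, and 11 and 14 reads. The 3′ UTR share was 44.1% and 23.4% (33.8% ± 14.6). The processed pseudogene CCNG1P1 had 0 and 11 peak reads and CCND2P1 had 10 and 23, and reads of such near copies cannot be assigned with certainty. CCNI (ENSG00000118816, chr4:77047158-77076005, minus strand) had 175 and 132 reads, with 86 and 43 in the 3′ UTR (49.1% and 32.6%, or 40.9% ± 11.7) and 81 and 55 in the CDS. Its leading regions were in the CDS at chr4:77055996-77056059, with 29 and 16 reads around codon 138, and in the 3′ UTR at chr4:77047323-77047428, with 25 and 18 reads.

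The RNA under the leading summits is shown to let the sequence be read beside the values, with the 5 bases around the summit in capitals, or the stop codon in CCNB1. Sequences are those of GENCODE 29 transcripts, written 5′ to 3′ with U for T. The CCNG1 stretch is chr5:163441221-163441250, the CCND2 stretch joins exons 2 and 3 between chr12:4276212-4278780, the CCND1 stretch is chr11:69651804-69651833 and the CCNB1 stretch is chr5:69177616-69177645.
CCNG1 CDS: aauggaaaagauUGUAUuggagaaggugug
CCND2 CDS, exons 2 and 3: gagcugcuggagUGGGAacugguggugcug
CCND1 3′ UTR: aagcacagcuguAGUGGgguucuaggcauc
CCNB1 stop codon: uguggcaaaggugUAAcuuguaaacuugag
No Pumilio element lay in the 51 nt around these summits. Over the 51 nt around the 26 repeated summits of representative 3′ UTRs, G made up 26.9% and C 12.8% of bases, against 20.7% and 19% in the whole 3′ UTRs of the same 8 genes. The windows of all coding genes had 25.7% G and 14.7% C, against 21.2% and 20.2% in their 3′ UTRs. The shift to G and away from C was thus seen in the cyclin genes and in coding genes at large.

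Repeated regions did not gather at one end of cyclin 3′ UTRs. Over the 26 of them the median summit lay 51.4% of the way from stop codon to transcript end, with a range of 3.77% to 98.9%, and 12 lay in the part nearer the stop codon. Peaks of both libraries covered 882 of 16316 nt of cyclin 3′ UTRs, or 5.41%, against 2.15% over 8178 coding genes with 3′ UTR peak reads. Cover can follow reads, of which the cyclin genes had more than the typical gene, and what part reads had was not tested. The shares of covered sites given below have the same limit. By gene the cover was 19.6% in CCNB2, 10.7% in CCNI, 8.99% in CCNG1, between 3.42% and 6.14% in CCND1, CCND2, CCNE1, CCNA2 and CCNB1, 1.66% in CCNE2 and 0% in CCND3. In the CDS, 6 of 32 repeated regions had a summit within 15 nt of an exon junction, against 31.0% of 27557 over coding genes.

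Pumilio elements occurred 5 times in the cyclin 3′ UTRs, once each in CCNB1, CCNB2 and CCND2 and at a pair of places in CCNE2. The search used the letters UGUANAUA on the transcript strand. Of the 5, only the CCNB2 element was under peaks of both libraries, against 17.4% of 4258 such elements in coding genes with 3′ UTR peak reads. It starts 70 nt after the stop codon, and peaks of 5 and 20 reads lay over it, with deposited p-values of 0.00122 and 3.29e-19. Their summits were 7 nt before and 6 nt after its first base. The element of CCNB1, 59 nt after the stop codon, has the same 8 letters but no peak, and the nearest summits were 65 and 75 nt upstream. That of CCND2 starts 4173 nt after the stop codon, with the nearest summits 61 and 59 nt downstream. The sequences are shown to set the covered element beside uncovered ones, with the element in capitals, from chr15:59124936-59124965, chr5:69177679-69177708 and chr12:4304171-4304200.
CCNB2, under peaks of both: acucuugauuuUGUACAUAguccucugguc
CCNB1, not covered: caugugccaucUGUACAUAuuacuguugca
CCND2, not covered: accuuaugucaUGUAAAUAauugauuuucu
Among windows of repeated 3′ UTR regions, 1 of 26 in the cyclin genes held a Pumilio element, against 6.97% of 10852 in coding genes.

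Sites for the seed shared by miR-16 and miR-15, UGCUGCU, occurred 5 times in cyclin 3′ UTRs, and both D-type and E-type cyclins are textbook targets of this family. One in CCND1 and one in CCNE1 were under peaks of both libraries, against 1.91% of 3030 such sites in coding genes. The CCND1 site starts 2033 nt after the stop codon, under peaks of 8 and 7 reads whose summits lay 5 and 8 nt past its first base. The CCNE1 site starts 247 nt after the stop codon, under peaks of 7 and 8 reads with both summits 1 nt past its first base. Each is followed by A, which gives the longer form of a seed site. A second CCNE1 site, 485 nt after the stop codon, lay under a peak of 9 reads in replicate 1 only, and the sites of CCND2 and CCND3 lay under none. The second CCNE1 site and that of CCND2 are followed by A as well, and that of CCND3 by G, so the A does not set the covered sites apart. Windows of 2 of the 26 repeated cyclin regions held the letters, against 0.931% of all windows.

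Sites for the seed of miR-17, miR-93 and miR-106b, GCACUUU, occurred 3 times in cyclin 3′ UTRs. The one in CCND2, 968 nt after the stop codon, was under peaks of 8 and 6 reads with summits 2 and 8 nt before its first base, against 3.62% of 2930 such sites in coding genes that were covered in both libraries. The sites in CCND1 and CCNI were not wholly under peaks. A site in the CDS of CCNB1, at codon 337, was also covered, by peaks of 16 and 30 reads with summits 12 and 7 nt before it. Windows of 2 of 26 repeated 3′ UTR regions held these letters, against 1.23% of all. These 4 covered sites and the microRNAs whose seeds pair with them are given together, with the site or the seed (bases 2 to 8) in capitals, from chr11:69653304-69653333, chr19:29824013-29824042, chr12:4300966-4300995 and chr5:69175454-69175483, and for the microRNAs from RefSeq (GRCh38.p14).
CCND1 3′ UTR: uucacauuguuUGCUGCUauuggaggauca
CCNE1 3′ UTR: cgugcucccgaUGCUGCUauggaaggugcu
hsa-miR-16-5p: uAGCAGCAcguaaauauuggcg
hsa-miR-15b-5p: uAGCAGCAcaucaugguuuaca
CCND2 3′ UTR: ccauucgaaaaGCACUUUgaaaaauuguuc
CCNB1 CDS: uaugacaugguGCACUUUccuccuucucaa
hsa-miR-17-5p: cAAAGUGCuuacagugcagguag
hsa-miR-93-5p: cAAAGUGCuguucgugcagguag
hsa-miR-106b-5p: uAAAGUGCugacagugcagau
The microRNA genes themselves had peaks for part of each family. MIR16-1 had 28 and 32 reads and MIR16-2 had 31 and 35, copies with the same mature sequence whose reads cannot be assigned to one, and MIR15B had 10 and 16. MIR93 had 63 and 44 reads and MIR106B had 26 and 22. No peak was listed for MIR15A, MIR195, MIR424 and MIR497 of the miR-16 family, or for MIR17, MIR20A, MIR20B and MIR106A of the miR-17 family.

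**Figure D4:**
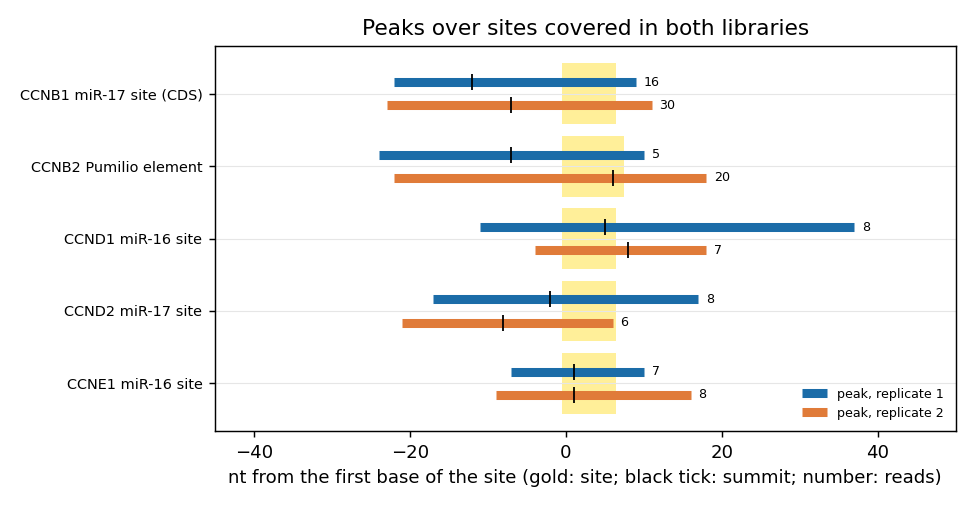
Peaks over the Pumilio element of CCNB2 and the microRNA seed sites of CCND1, CCNE1, CCND2 and CCNB1 that both libraries cover, in nt from the first base of the site. Gold marks the site, bars the extent of each peak, black ticks its summit and numbers its reads, and summits range from 12 nt before to 8 nt after the first base.

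The peaks over these sites were mostly weak. At the deposited p-value limit of 1e-05 or under, none of the Pumilio, miR-16 or miR-17 sites of cyclin 3′ UTRs was under peaks of both libraries. The AU-rich pentamer AUUUA, the letters of elements long known from unstable mRNAs, occurred 45 times in cyclin 3′ UTRs. None of the 45 was under peaks of both libraries, 3 were under a peak in replicate 1 and 1 in replicate 2, against 1.62% of 37656 covered in both libraries in coding genes. In cyclin CDS, 2 of 11 such pentamers were under peaks of both libraries, in CCNB1 and CCNI. No share over the CDS of all coding genes stands beside that count. A miR-122 site in CCNG1, ACACUCC, 832 nt after the stop codon, lay under a peak of 16 reads in replicate 1 and none in replicate 2, and 0% of 766 such sites in coding genes were covered in both. The sites for miR-19 (UUUGCAC), 5 in number, and miR-92 (GUGCAAU), 2 in number, lay under no peak, against 3.21% and 6.73% of such sites covered in both libraries in coding genes. So few sites could not show a difference from those shares.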

How the data were processed

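Peak lists of 2 libraries of 1 group were analysed. Per the submitters' processing notes, cutadapt 4.2, UMI-tools 1.1.4, STAR 2.7.11 and the GRCh38 build were used, with no role given. The deposited files' names add that CLIPper called the peaks of each library, after filters on alignment score, mismatches and loci. For CLIPper, neither version nor annotation is given in the sources used here. Each deposited list holds a p-value per peak, with no adjustment stated, and a whole number of reads in each peak name, at least 3. Total sequenced reads are unknown, so sums of peak reads (1624888 and 1704925) stand in for depth.

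Genes and sequences came from GENCODE 29, which held 19811 of 20048 gene identifiers and all 10 members. A summit, the middle of the thick interval, was assigned over all coding transcripts to 3′ UTR, CDS, 5′ UTR, non-coding exon or intron, in that order. The representative transcript was chosen by APPRIS, CCDS and transcript support level. Peaks overlapped if they had 1 nt or more in common under the same gene. A share needed 10 reads. Windows were 51 nt around a summit, and 17 motifs were searched on the transcript strand, some overlapping (AUUUA lies within UAUUUAU). A site counted as covered when all its bases were under a peak. Python 3.11.15, numpy 2.4.6, scipy 1.17.1 and matplotlib 3.10.9 were used. On simulated peaks, region shares and overlaps were recovered for 200 of 200 genes, and 198 of 200 transcripts had start and stop codons in place.

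The members, lists and motifs were chosen with earlier results of these data known. All 10 members are named, and of other lists the 3 genes with most reads. CCNT1, CCNJ and CABLES1 are named besides, picked after their values were seen. No test between conditions was possible with 1 group.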

Additional observations from a re-analysis of the deposited data

How the results depend on the processing

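No paired analysis was possible because there is 1 group. The order of levels changed with the length used, as CCNB2 stood above CCNA2 and CCND2 per kb of the representative transcript (22.4, against 21.4 and 20.6). Limiting peaks to p-values at or under 1e-05 left 37 of 65 repeated cyclin regions, 6 instead of 9 members with a repeated 3′ UTR region and 6 instead of 9 with a repeated CDS region, a mean overlap of 66.5% instead of 63.8%, a median level of 13.1 instead of 15.5, and 0 Pumilio, 0 miR-16 and 0 miR-17 sites covered in both libraries. Limiting them to at least 10 reads left 27 regions, 6 members with a repeated 3′ UTR region, 5 instead of 9 members with a repeated CDS region, an overlap of 61.6%, a level of 11.7, and again 0, 0 and 0 sites. Asking for 50% of both peaks to be shared gave an overlap of 42.9% and 1 instead of 2 miR-16 sites. The median level was 20.6 per kb of the representative transcript and 26.5 when scaled to the reads of coding genes alone. The limits on p-value and on reads left fewer peaks to count, and what moved the values was not tested.

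The median 3′ UTR share stayed between 32.6% and 43.9% in each library alone and between 34.8% and 38.2% under the other settings. It was 34.8% under the p-value limit and 35.5% under the limit on reads, against 14% and 8.51% over coding genes under the same limits, and under the other settings the coding genes were not recomputed. Over all results of the set and settings, 32 values stayed within the margin set for them and 17 did not, and of values of single genes 101 stayed and 36 did not. These counts include the settings that left out a library, where every value counted as staying. The CCNE2 share was among those, at 18.8% in replicate 2 alone against 37.5% as the mean. The counts are thus no measure of how robust the values are. Leaving out a library gave no value for repeated regions and covered sites, which need both. Peaks of a few reads limit the precision, and for CCND3 and CCNE2 depth limits what can be said of regions.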

Other observations

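Of 20 other cyclin genes, 14 had peaks in both libraries, 2 in one and 4 in none. A repeated region needs peaks in both, and of the 14, 11 had one in the 3′ UTR and 11 in the CDS. Over coding genes with a peak in each library the shares with such regions were 50.4% and 65.6%. The median 3′ UTR share of the other cyclin genes was 43.3% and 38.7% in replicates 1 and 2, near that of the 10 genes described above. CCNG2, an atypical cyclin, led by reads with 189 and 229 and a 3′ UTR share of 61.6% ± 12.4 (SD, n = 2). CCNC, a partner of the Mediator kinase, had 121 and 132 reads and a share of 25.8% ± 3.26. CCNF, the F-box protein cyclin F, had 96 and 148 reads and a share of 22.0% ± 13. CCNT1, the cyclin of the elongation kinase P-TEFb, and CCNJ were picked after their values were seen, with shares of 89.7% ± 1.62 and 91.3% ± 2.14. These were the highest mean shares of the other cyclin genes. The lowest among those with a share in both libraries was that of CABLES1, 12.3% ± 17.4.

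All 25 partners and regulators of cyclins had peaks in both libraries, 18 with a repeated 3′ UTR region and 23 with a repeated CDS region, against the same 50.4% and 65.6%. Their median 3′ UTR share was 19% in replicate 1 and 26% in replicate 2. CKS2, a small CDK-binding subunit, had 295 and 391 reads and a share of 18.3% ± 10.0. AMBRA1, the receptor that directs D-type cyclins to degradation, had 281 and 393 reads and a share of 6.0% ± 0.571. CDK1, the mitotic kinase, had 271 and 350 reads and a share of 61.8% ± 0.729, while its partner CCNB1 kept most of its reads in the CDS.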
